A study of Mus musculus with 20 samples.

Results

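Nuclear receptors are transcription factors that bind lipids, hormones, bile acids and foreign chemicals and switch liver metabolism in response. The 41 genes described here are nuclear receptors and the coregulators PGC-1 alpha, PGC-1 beta and NCoR1, with the RAR, ROR, NR4A and orphan families included. They were taken by name from the array: every non-control probe whose gene name is 1 of the 41 was read, which gave 69 probes among 55681, for 41 of the 34744 gene names on the array. RNA of whole liver was measured on 20 one-colour Agilent arrays, 1 per mouse, in 5 inbred strains with 4 mice each. By its title, the study set diabetes-susceptible strains against lean, diabetes-resistant ones. All mice were male, were on a high-fat diet of 45% fat and are labelled as 6 weeks old, although the design text gives week 6 as the end of the high-fat feeding. C57BL/6 (B6) and 129P2/OlaHsd (129Ola) are the strains named as lean and resistant, DBA/2J (DBA) and C3HeB/FeJ (C3H) the strains named as susceptible, and NZO/HiBomDife (NZO), the New Zealand Obese mouse, the strain named as obese and susceptible. Susceptibility differs here only between strains, so it cannot be told apart from any other difference between those strains, and none of the mice was on another diet. Each label gives a separate animal number; whether mice of a strain shared a litter or cage is not stated. Values per mouse are listed in a fixed order of those numbers: B6 9, 10, 11 and 15, NZO 3, 7, 9 and 11, DBA 5, 9, 8 and 15, C3H 1, 2, 3 and 5, and 129Ola 4, 5, 7 and 9.

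Most nuclear receptors bind DNA in pairs, either with a copy of themselves or with a retinoid X receptor, and in many cases a ligand exchanges a corepressor such as NCoR1 for coactivators such as PGC-1 alpha. In hepatocytes, HNF4A holds the liver programme of gene expression, PPAR alpha drives fatty acid oxidation, LXR and FXR govern sterol and bile acid balance, and CAR and PXR induce enzymes that clear drugs and steroids. SHP, encoded by Nr0b2, has no DNA-binding domain and represses other receptors, among them LRH-1 (Nr5a2) and HNF4A.

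A level below is the log2 of the array's processed signal minus that array's 75th percentile, so that 0 lies at the 75th percentile of all probes and a difference of 1 is a doubling. Levels of different probes are not set against each other, since each probe has its own brightness. Between 40.0% and 59.1% of probes were well above background on an array, 51.9% to 59.1% in B6, 49.2% to 54.0% in NZO, 50.2% to 53.4% in DBA, 43.3% to 46.9% in C3H and 40.0% to 43.4% in 129Ola, and no spot was saturated. The number of arrays limits the precision. B6, NZO and DBA arrays were read with version 11.0.1.1 of the scanner's extraction software and C3H and 129Ola arrays with version 11.5.1.1, so only strains of the same version were tested against each other in pairs. Levels of the 5 strains shown side by side also hold the step between the versions. Scan days 1 and 2 each held arrays of B6, NZO and DBA, whereas all C3H arrays were scanned on 1 day and all 129Ola arrays on another, so strain, scan day and slide cannot be told apart in that comparison. DBA 8 and DBA 15 were scanned on a day of their own and on a slide of their own, so for these 2 of the 4 DBA mice strain, scan day and slide cannot be told apart in the fits without a block. The labelled tissue was borne out: 9 tested hepatocyte markers, albumin among them, were well above background on all 20 arrays, with a mean level of 9.53 to 9.84. The mean level of 14 Kupffer cell and macrophage markers was 3.07 to 3.53 in B6, 2.56 to 2.82 in NZO, 2.19 to 2.35 in DBA, 1.64 to 2.46 in C3H and 2.30 to 2.88 in 129Ola. Of these 14 markers 8 were lower and 0 higher in NZO than in B6, 8 were lower and 0 higher in DBA than in B6, 0 were lower and 2 higher in NZO than in DBA, and 9 were lower and 1 higher in C3H than in 129Ola. In whole liver, fewer cells of a type and less RNA per cell cannot be told apart, and the part of these markers in the results below was not tested.

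Of the 41 genes, 37 had a probe that every one of the 4 arrays of some strain put well above background, and these 37 were tested among 20624 genes. For 32 of them the probe was well above background on all 20 arrays. These 32 include all 3 PPARs, both LXRs, FXR (Nr1h4), PXR (Nr1i2), CAR (Nr1i3), all 3 RXRs, all 3 RARs, both thyroid hormone receptors, HNF4A, the glucocorticoid receptor (Nr3c1), LRH-1 and SHP. The other 5 were near background in some strain. ERR gamma (Esrrg) was well above background in all 4 NZO mice, 3 DBA, 3 129Ola and 2 B6 mice, and in none of the C3H mice. Nurr1 (Nr4a2) was well above background in all B6 and NZO mice and 3 DBA mice, and in 0 of the 8 C3H and 129Ola mice with the probe that stands for it. Its other probe was well above background in 2 C3H mice, so that either probe was on 13 of 20 arrays. PGC-1 beta (Ppargc1b) was well above background in all 4 B6 and all 4 DBA mice, 1 NZO, 1 C3H and no 129Ola mouse. The germ cell nuclear factor Nr6a1 was well above background on 15 arrays and the mineralocorticoid receptor Nr3c2 on 19. A call of the scanner software depends on each array's own background, which was not compared between the software versions.

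The other 4 genes had no probe that was well above background in all mice of a strain. The probe of Nr4a3 was not well above background on any of the 20 arrays. The vitamin D receptor (Vdr) was well above background in 1 DBA mouse alone. Hnf4g, a relative of HNF4A known from gut and kidney, was well above background in 1 B6 and 1 NZO mouse. Rorb, known from brain and retina, passed with its best probe in 3 B6 mice, 1 NZO and 1 DBA mouse, and on 8 of 20 arrays with any of its probes. These 4 genes give only a bound on their level, and no difference between strains is reported for them.

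**Figure D1:**
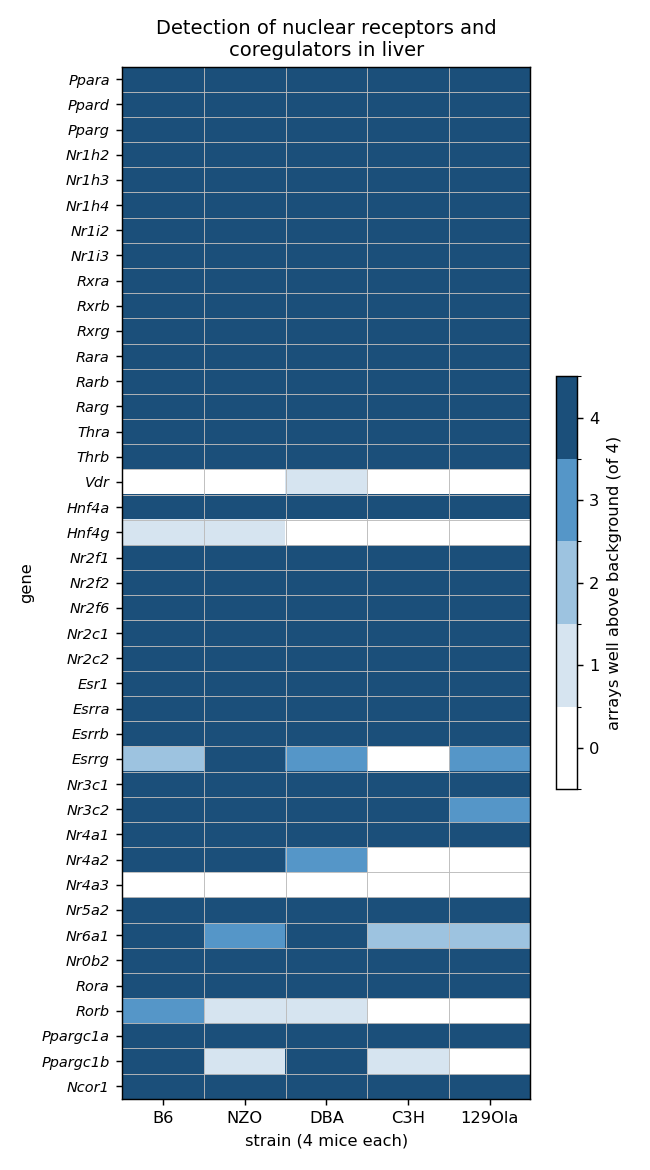
Number of arrays, 0 to 4 per strain, on which the probe that stands for each of the 41 genes was well above background, with genes in rows and strains in columns. Of the 41 genes, 32 are at 4 in every strain, Nr4a3 is at 0 in every strain, and Esrrg, Nr4a2, Nr6a1, Nr3c2, Ppargc1b, Vdr, Hnf4g and Rorb are in between.

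Whether a receptor varied by strain was read from limma's moderated test, fitted on all 20624 genes with Benjamini-Hochberg adjustment over all of them and called at an adjusted p below 0.05. Over the 3 differences NZO minus B6, DBA minus B6 and C3H minus 129Ola jointly (a moderated F test), 19 of the 37 tested receptors and coregulators varied by strain, against 48.3% of all genes. The share of 51.4% among the 37 is near that background. An F over all 5 strain means, which also holds the step between the software versions, called 26 of 37, or 70.3%, against 71.2% of all genes. In pairs of strains, 21 of the 37 were called in at least 1 of 4 comparisons: 13 in 1 comparison, 5 in 2, 2 in 3, and Nr1i3 in all 4. Those 21 are 56.8% of the 37, against 54.0% of all genes. All 19 genes called by the first F test are among these 21; Ncor1 and Nr4a1 were called in a pair only. Comparisons among NZO, DBA and B6 share mice, so their calls are not independent of each other.

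Between NZO and B6, 8 of 37 were called, 3 higher and 5 lower in NZO, against 18.3% of all genes (9.72% higher and 8.57% lower). Higher in NZO were Esrrg, Nr1h2 and Rxrg, and lower were Nr1i3, Nr2f1, Nr4a1, Rara and Rarg. Between DBA and B6 only 2 of 37 were called, against 15.4% of all genes (7.27% higher and 8.08% lower): Nr1i3 was higher and Nr2f1 lower in DBA. Between NZO and DBA, 9 of 37 were called, 5 higher and 4 lower in NZO, against 18.0% of all genes (9.77% and 8.27%). Between C3H and 129Ola, 14 of 37 were called, 2 higher and 12 lower in C3H, against 37.9% of all genes (15.4% higher and 22.6% lower). The median difference of the 37 was 0.04, 0.10, 0.02 and -0.16 in these 4 comparisons, against 0.05, 0.01, 0.04 and -0.08 over all genes. The mice of both strains did not overlap for 8 of the 37 between NZO and B6, 4 between DBA and B6, 8 between NZO and DBA and 15 between C3H and 129Ola, against 22.4%, 19.7%, 20% and 40.3% of all genes.

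The split between higher and lower calls in C3H against 129Ola moved with the scaling. With the percentile taken only over probes that all 20 arrays put well above background, 4 were higher and 7 lower in C3H, with quantile normalization 3 and 8, and with normexp background correction 2 and 7. Over all genes the split moved too, from 15.4% higher and 22.6% lower to 22.1% higher and 12.5% lower with that percentile, 15.7% higher and 16.8% lower with quantile normalization and 8.52% higher and 14.9% lower with normexp. The median of all genes in that comparison moved from -0.08 to 0.09 with that percentile and to -0.02 with quantile normalization. With the slide as a random block 4 of the 14 calls were kept, namely Nr1i3, Nr5a2, Rxra and Rxrg. C3H and 129Ola arrays shared no slide, so a call kept under this block does not tell strain from slide or scan day. The shares of all genes called with a slide or scan-day block are not given here. Member counts under those blocks are thus not results about receptors in particular. In NZO against B6 the percentile over detected probes gave 1 higher and 5 lower (all genes 7.56% higher and 11.9% lower), and normexp 5 and 4 (all genes 9.68% higher and 7.94% lower). In DBA against B6 they gave 1 higher and 3 lower (all genes 6.83% higher and 10.4% lower), and 3 and 2 (all genes 7.86% higher and 8.49% lower). In NZO against DBA they gave 4 and 5 (all genes 9.43% higher and 9.7% lower), and 2 and 5 (all genes 11.4% higher and 8.65% lower), and the slide block 6 and 4. No called difference changed sign under any alternative tried. The alternatives used the arrays on which the differences were picked, so a kept sign was likely beforehand. Among B6, NZO and DBA, 19 of 19 called differences had the same sign on scan day 1 and on scan day 2. They were picked by their pooled difference, which holds these same arrays. A shared sign was therefore likely beforehand and is no independent repeat. Once scan day entered as a block, 12 of the 19 were lost and 7 stayed past the threshold: Esrrg, Nr1i3, Rara and Rarg in NZO against B6, and Nr1i3, Ppargc1a and Ppargc1b in NZO against DBA. Scan day 1 held 3 NZO, 2 B6 and 1 DBA array, and scan day 2 held 1 NZO, 2 B6 and 1 DBA array, so these differences within a day rest on few arrays.

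**Figure D2:**
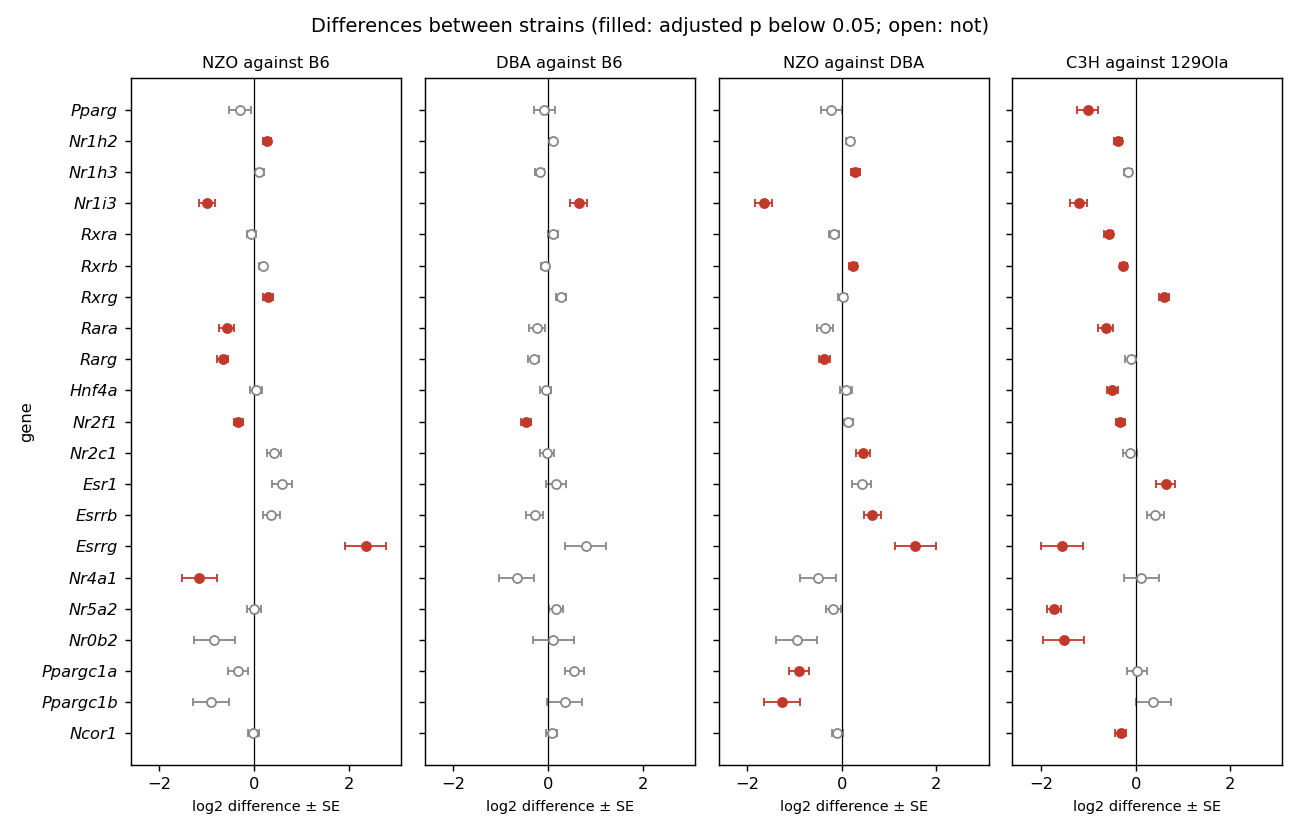
Log2 difference ± SE from limma for the 21 receptors and coregulators called in at least 1 comparison, with 1 panel per comparison and 4 mice per strain; filled points passed an adjusted p of 0.05. The points of C3H against 129Ola lie mostly left of 0, with 12 of 14 filled points lower in C3H, and those of DBA against B6 hold 2 filled points.

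CAR, encoded by Nr1i3, was called in all 4 comparisons. CAR is kept in the cytoplasm until a drug-like chemical releases it, and then induces cytochromes P450 and conjugating enzymes. The array holds a pair of 60-base probes for Nr1i3, both on the plus strand of chromosome 1 in the mm9 build, at chr1:173148765-173148824 (the brighter one, which stands for the gene) and chr1:173147776-173147835. Their first 30 bases are shown because agreement of 2 separate stretches of a transcript bears on whether a difference belongs to the gene or to 1 probe. Which exon or untranslated region each lies in was not used here.
Nr1i3 brighter probe: tataaacaatgcatactcctatgaacttca
Nr1i3 other probe: aagagaagagatagatcagctacaagagga
With the brighter probe, the level of Nr1i3 was 2.59, 2.75, 3.20 and 2.72 in the NZO mice and 4.02, 3.85, 3.77 and 3.58 in the B6 mice. It was 4.15, 4.85, 4.54 and 4.29 in the DBA mice. All 4 NZO mice lay below all B6 mice and all B6 mice below all DBA mice. Nr1i3 was 1.99-fold lower in NZO than in B6, a log2 difference of -0.99 (SE 0.18, adjusted p = 0.000585). It was 3.12-fold lower in NZO than in DBA, a difference of -1.64 (SE 0.18, adjusted p = 2.43e-06). The 1.57-fold higher level in DBA than in B6, a difference of 0.65 (SE 0.18, adjusted p = 0.0166), was less firm. Leaving out B6 15 or DBA 9 ended that call, and over all such fits the difference ran from 0.52 to 0.76, with adjusted p up to 0.0681. Within scan days this difference was 1.13 on scan day 1 and 0.26 on scan day 2, and its adjusted p with scan day as a block was 0.0869. The NZO differences kept their call there, with adjusted p = 0.00561 against B6 and 0.00135 against DBA. In C3H mice the level was 4.31, 4.59, 4.79 and 4.46, and in 129Ola mice 6.02, 5.82, 5.80 and 5.31. The mice of these strains did not overlap, and Nr1i3 was 2.3-fold lower in C3H, a log2 difference of -1.20 (SE 0.18, adjusted p = 6.75e-05). So CAR was lower in C3H than in 129Ola but higher in DBA than in B6, although both comparisons set a strain named as susceptible against one named as resistant. The other probe gave -1.02 (adjusted p = 0.000821 over the tested probes) for NZO against B6. Its differences were 0.70 for DBA against B6, -1.73 for NZO against DBA and -1.04 for C3H against 129Ola, so both probes had the same sign in each comparison.

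PXR (Nr1i2), the other receptor of foreign chemicals and CAR's closest relative, was called in no comparison. Its level ranged from 1.80 to 2.52 in B6, 1.93 to 2.76 in NZO, 2.21 to 2.90 in DBA, 2.87 to 3.26 in C3H and 2.56 to 3.13 in 129Ola. The ranges of B6 and NZO mice overlapped, with a difference of 0.01 and a 95% interval of -0.42 to 0.43. For NZO against DBA the interval was -0.80 to 0.05, and for C3H against 129Ola -0.23 to 0.62.

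Genes known to be induced by CAR or PXR differed between strains in both directions. Of 22 tested, 5 were higher and 10 lower in NZO than in B6 (median -0.39, against 0.05 over all genes), and 5 were higher and 9 lower in NZO than in DBA (median -0.42). In DBA against B6, 6 were higher and 3 lower (median -0.04), and in C3H against 129Ola 2 were higher and 12 lower (median -0.66, against -0.08). With the slide as a random block, C3H against 129Ola kept 1 higher and 7 lower. Cyp3a44, a P450 with a female-biased pattern, was not well above background on any B6 array, and was at least 64.3-fold brighter in NZO livers (adjusted p = 6.95e-07) and at least 18.8-fold brighter in DBA livers (adjusted p = 2.33e-05). An "at least" fold sets the mean of the brighter strain against a floor in the dimmer one, which on each array is the lowest signal of any probe well above background there, or the probe's own signal where that is higher. Cyp2b10, the classical CAR target, was 6.04 (SE 0.65, adjusted p = 2.21e-06) higher on the log2 scale in NZO than in B6, where 1 of 4 arrays was well above background, while Nr1i3 was lower in NZO. The glutathione transferase Gsta2 was lower in NZO than in B6 by a log2 difference of -4.19 (SE 0.33, adjusted p = 4.81e-08) and lower in C3H than in 129Ola by -5.47 (SE 0.33, adjusted p = 1.26e-09). Members of the Cyp2b, Cyp2c and Cyp3a families are near-identical copies, and their probes can bind RNA of a neighbour; this was not tested.

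**Figure D3:**
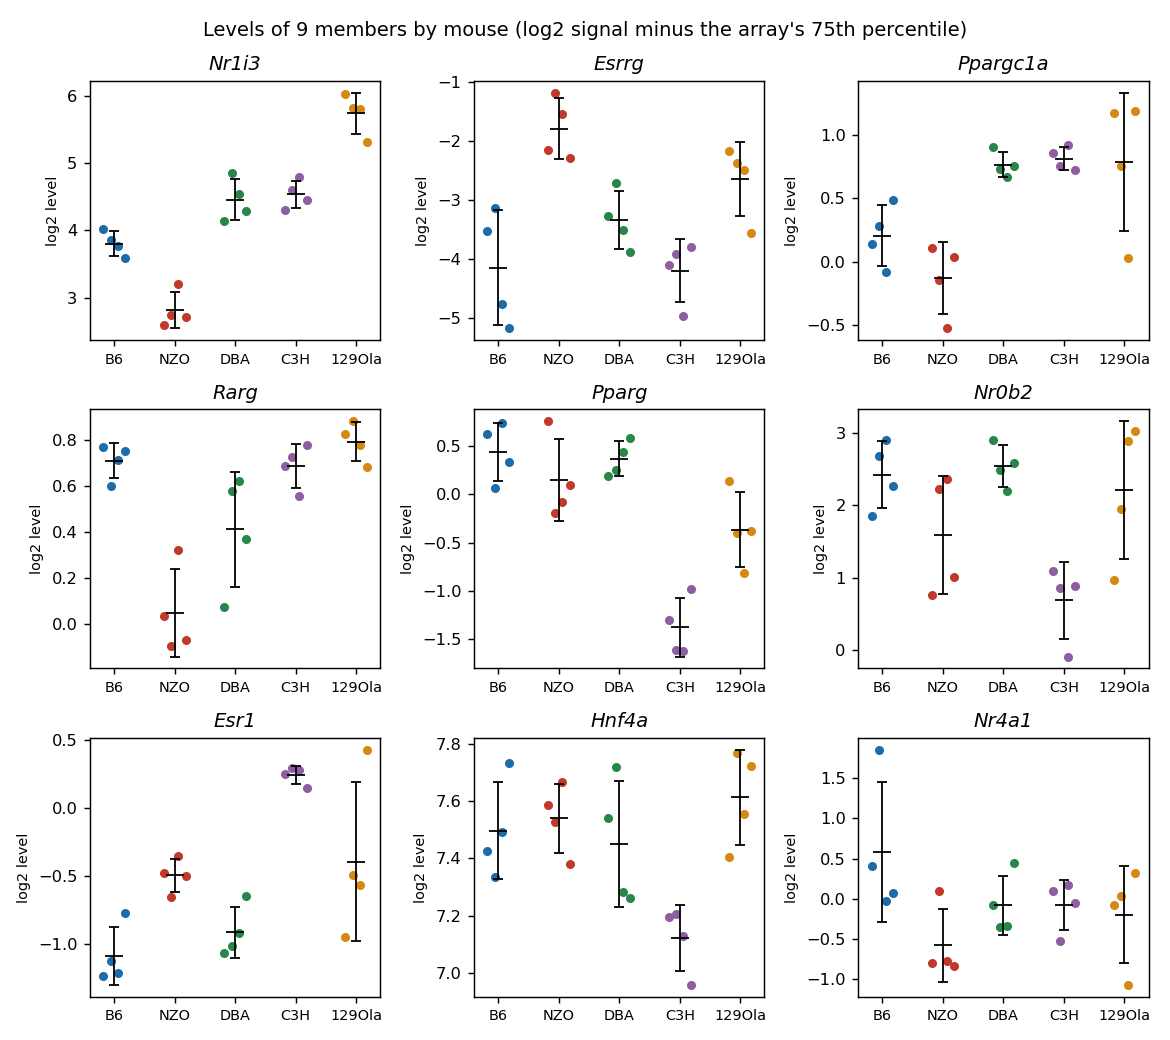
Log2 level in each of the 20 mice (points) with the strain mean ± SD (bars, 4 mice each) for 9 receptors and coregulators, 1 panel per gene with its own axis. For Nr1i3 the 4 NZO mice (2.59 to 3.20) lie below the B6 and DBA mice and the 4 C3H mice below the 129Ola mice (5.31 to 6.02), and for Esrrg the NZO mice lie above the B6 and DBA mice. C3H and 129Ola arrays were read with another software version than the other 3 strains.

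Retinoic acid receptors bind all-trans retinoic acid and work as partners of the RXRs. In NZO mice the level of Rarg was 0.03, -0.09, 0.32 and -0.07, against 0.77, 0.60, 0.71 and 0.75 in B6 mice and 0.07, 0.58, 0.62 and 0.37 in DBA mice. All NZO mice lay below all B6 mice, whereas NZO and DBA mice overlapped. Rarg was 1.58-fold lower in NZO than in B6, a log2 difference of -0.66 (SE 0.11, adjusted p = 0.00041), and the call held with scan day as a block (adjusted p = 0.00648). Against DBA the difference was -0.36 (SE 0.11, adjusted p = 0.0351), or -0.23 with normexp. Without NZO 3, 7 or 11 or DBA 9, 8 or 15 that second call did not hold, and with any 1 mouse left out the difference lay between -0.47 and -0.29, with adjusted p up to 0.123. Within scan days it was -0.48 on scan day 1 and -0.17 on scan day 2, with adjusted p = 0.278 under the block. In C3H and 129Ola mice Rarg ranged from 0.56 to 0.78 and from 0.68 to 0.88, with no call (-0.11, 95% interval -0.35 to 0.14).

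RAR alpha (Rara) was lower in NZO too. Its level was 3.34, 2.94, 2.99 and 3.30 in NZO mice and 3.92, 3.63, 3.49 and 3.84 in B6 mice, without overlap, and the difference was -0.58 (SE 0.17, adjusted p = 0.0218). The call depended on single mice: it was lost without B6 9 or 15 or NZO 7 or 9, over a range of -0.65 to -0.51 and adjusted p up to 0.0717. The block on scan day left adjusted p = 0.0138. In C3H mice Rara was 3.41, 3.53, 3.77 and 2.93 and in 129Ola mice 4.21, 4.09, 3.78 and 4.10. The lowest 129Ola mouse lay just above the highest C3H mouse, and Rara was 1.55-fold lower in C3H (-0.63 (SE 0.17, adjusted p = 0.00719)). A further Rara probe gave -0.71 (adjusted p = 0.000826 over the tested probes) in C3H against 129Ola, but -0.18 (adjusted p = 0.433 over the tested probes) in NZO against B6, so the NZO difference was seen with 1 of the pair of probes. RAR beta (Rarb), itself induced by retinoic acid, was not called in any pair with its brightest probe. A dimmer Rarb probe gave 0.64 (adjusted p = 0.0242 over the tested probes) for DBA against B6, where the brightest gave 0.10. That dimmer probe did not pass in the other comparisons. With the brightest probe the C3H minus 129Ola difference was 0.36 (95% interval -0.06 to 0.78), and Rarb was called higher in C3H when the percentile was taken over detected probes.

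The RXRs are the common partners of the RARs, PPARs, LXRs, FXR, CAR and PXR. RXR alpha (Rxra), regarded as the main RXR of liver, was 1.0, 1.02, 1.01 and 0.87 in C3H mice and 1.60, 1.68, 1.41 and 1.47 in 129Ola mice, without overlap. It was 1.48-fold lower in C3H, a log2 difference of -0.57 (SE 0.10, adjusted p = 0.000344). The call was kept with the slide as a random block, which cannot tell slide from strain here. A further Rxra probe gave -0.20 (adjusted p = 0.213 over the tested probes), lower in C3H but not past the threshold. Among B6, NZO and DBA the Rxra differences lay between -0.16 and 0.11 with no call. RXR beta (Rxrb) was 4.93, 4.84, 4.98 and 4.76 in C3H mice and 5.07, 5.03, 5.20 and 5.24 in 129Ola mice. All C3H mice lay below all 129Ola mice, and the difference was -0.26 (SE 0.08, adjusted p = 0.0171), but it was not called under normexp, quantile normalization or the percentile over detected probes, where it was -0.09, -0.07 and -0.09. In fits with 1 mouse less the difference was -0.29 to -0.22, and it was lost without C3H 5 or 129Ola 9, with adjusted p up to 0.061. In NZO mice Rxrb was 4.82, 4.81, 4.83 and 4.73, and in DBA mice 4.49, 4.63, 4.57 and 4.53. The NZO mice lay above all DBA mice by a small margin, with a difference of 0.24 (SE 0.08, adjusted p = 0.0424). The call was lost without C3H 1 or 2, B6 9, NZO 3, 7 or 9 or DBA 5, 8 or 15, and with 1 mouse left out the difference ran from 0.22 to 0.27, with adjusted p up to 0.0935. With scan day as a block the adjusted p was 0.202.

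RXR gamma (Rxrg), known mainly from muscle and brain, gave different answers with its 2 probes. They lie close together on the plus strand of chromosome 1 (mm9), the brighter at chr1:169569496-169569555 and the other at chr1:169569624-169569683, and their first 30 of 60 bases are shown since the result turns on which of them is read.
Rxrg brighter probe: ctggcctcccttcctgtccccaaaatgtga
Rxrg other probe: aggtctttccggcagttcttgggaagagtg
With the brighter probe Rxrg was 2.70, 2.74, 2.81 and 2.71 in C3H mice and 2.14, 2.22, 1.97 and 2.25 in 129Ola mice. The strains did not overlap, and Rxrg was 1.51-fold higher in C3H, a log2 difference of 0.60 (SE 0.10, adjusted p = 0.000211). That call was kept with the slide as a random block, which cannot tell slide from strain here. With the other probe the levels were 2.29, 2.24, 2.76 and 1.99 in C3H and 2.37, 2.02, 2.27 and 2.32 in 129Ola, and the difference was 0.08 (adjusted p = 0.752 over the tested probes). In NZO mice the brighter probe read 3.05, 2.62, 2.80 and 2.77 and in B6 mice 2.42, 2.65, 2.38 and 2.60. NZO and B6 mice overlapped, with a difference of 0.30 (SE 0.10, adjusted p = 0.0455). Leaving out C3H 1, 2, 3 or 5, B6 9, 11 or 15, NZO 3, 9 or 11, DBA 9, 8 or 15 or 129Ola 4 or 5 ended the call, and over all such fits the difference ran from 0.22 to 0.36, with adjusted p up to 0.156. On single scan days the value was 0.25 on scan day 1 and 0.22 on scan day 2, with adjusted p = 0.0957 under the block. The other probe gave 0.58 (adjusted p = 0.0269 over the tested probes) for NZO against B6 and 0.93 (adjusted p = 0.00085 over the tested probes) for DBA against B6. The probes were not compared with the strains' own genome sequences, so the part of a base difference under a probe was not tested.

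**Figure D4:**
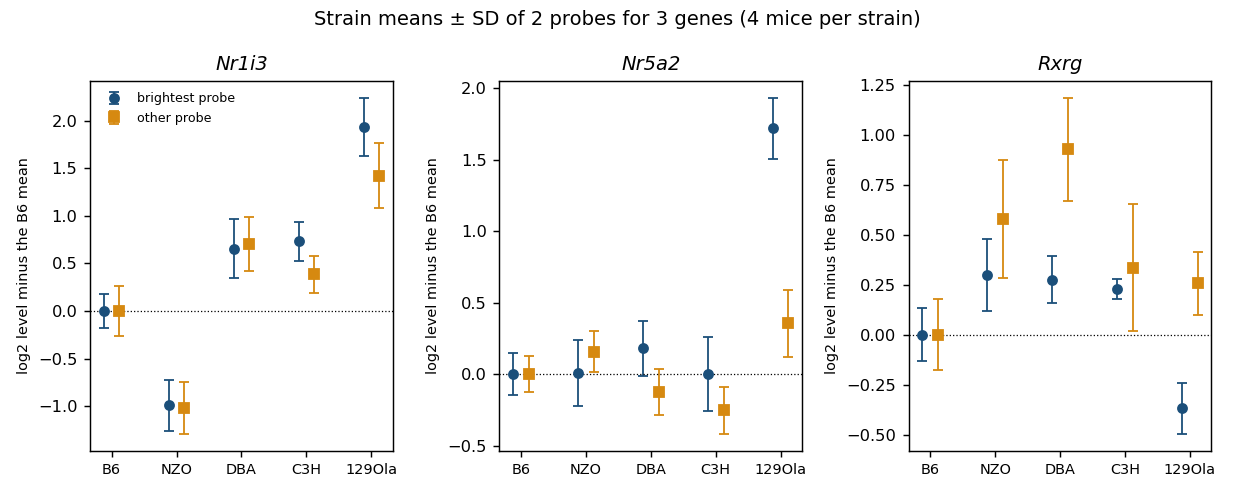
Strain mean ± SD (4 mice) of each of 2 probes of Nr1i3, Nr5a2 and Rxrg on the log2 scale, minus that probe's mean in B6. C3H and 129Ola arrays were read with another software version than B6 arrays, so their height against B6 also holds that step. Both Nr1i3 probes are lowest in NZO and highest in DBA among B6, NZO and DBA and lower in C3H than in 129Ola, both Nr5a2 probes are lower in C3H than in 129Ola, and for Rxrg only the brighter probe sets C3H clearly above 129Ola.

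Of 7 tested genes that retinoic acid receptors are known to induce, 1 was lower and 0 higher in NZO than in B6 and in DBA than in B6, and 1 was higher and 1 lower in NZO than in DBA and in C3H than in 129Ola. Lrat, which esterifies retinol for storage and marks stellate cells, was lower in DBA than in B6 (-1.21 (SE 0.22, adjusted p = 0.000624)). Of 15 stellate cell and fibroblast markers, Lrat among them, 1 was higher and 5 lower in DBA than in B6, and 0 were higher and 3 lower in NZO than in B6. In NZO against DBA 3 of them were higher and 6 lower, and in C3H against 129Ola 3 were higher and 5 lower. The mean level of those markers was 1.72 to 1.80 in B6, 1.11 to 1.57 in NZO, 1.48 to 1.68 in DBA, 1.69 to 1.79 in C3H and 1.71 to 1.99 in 129Ola, and their part in the retinoid results was not tested. Crabp2, a retinoic acid carrier, was higher in C3H than in 129Ola (1.02 (SE 0.14, adjusted p = 2.66e-05)).

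The PPARs sense fatty acids. PPAR gamma (Pparg), the receptor of fat storage, was -1.30, -1.61, -1.61 and -0.98 in C3H mice and 0.14, -0.40, -0.82 and -0.38 in 129Ola mice. All C3H mice lay below all 129Ola mice, and Pparg was 2.01-fold lower in C3H, a log2 difference of -1.01 (SE 0.22, adjusted p = 0.0023). With the slide as a random block that call was lost, and with normexp the difference was -0.46. Pparg overlapped among B6 (0.07 to 0.73), NZO (-0.19 to 0.75) and DBA (0.19 to 0.58), with differences from -0.29 to -0.07 and no call. Of 5 tested genes known as its targets in fatty liver, 0 were lower in C3H, and Fabp4, a fatty acid carrier of adipocytes and macrophages, was higher by 0.88 (SE 0.23, adjusted p = 0.00683). The adipocyte marker Adrb3 was also higher in C3H than in 129Ola, by 3.58 (SE 0.22, adjusted p = 1.85e-09). Cfd, which was not well above background on any 129Ola array, was at least 2.65-fold higher in C3H (adjusted p = 0.0142), so that 3 of 3 tested markers were higher, Fabp4 among them. Of the 7 listed markers, Adipoq, Lep, Retn and Plin1 were not among the genes tested. Adrb3 was well above background on 4 B6, 4 DBA and 0 NZO arrays. The mean level of the 3 tested markers was 1.36 to 1.97 in C3H and -0.88 to -0.25 in 129Ola, and its part in these values was not tested. Mogat1, which makes diacylglycerol in fatty liver, was higher in NZO than in B6 (1.17 (SE 0.35, adjusted p = 0.0258)) and DBA (1.42 (SE 0.35, adjusted p = 0.00745)), being well above background on 4 NZO, 3 B6 and 2 DBA arrays. Of B6, NZO and DBA, only NZO met the condition for a gene to be tested. Whether C3H or 129Ola met it is not given here, so these differences may depend on that filter.

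PPAR alpha (Ppara) itself was called in no comparison. It was 6.15, 6.20, 6.54 and 6.16 in DBA mice and 5.66, 6.12, 5.62 and 5.91 in B6 mice. The DBA mice lay above all B6 mice, and the difference of 0.43 (SE 0.15, adjusted p = 0.053) narrowly missed the threshold. Its 2 other probes did pass in the fit over probes, with 0.50 (adjusted p = 0.0317 over the tested probes) and 0.52 (adjusted p = 0.00619 over the tested probes). C3H and 129Ola mice had like ranges (6.20 to 6.67 and 6.26 to 6.52), with a difference of 0.03 and a 95% interval of -0.28 to 0.33. Of its 27 tested known targets, 18 were lower and 2 higher in C3H than in 129Ola, with a median of -0.57 against -0.08 over all genes. With the percentile over detected probes 15 were lower and 2 higher, and with the slide as a random block 11 and 0. Cyp4a14, an omega-hydroxylase of fatty acids, was lower in C3H by -7.67 (SE 0.78, adjusted p = 1.04e-06), with 2 of 4 C3H arrays well above background. Vnn1, a pantetheinase, was lower by -3.07 (SE 0.42, adjusted p = 3e-05), whereas the fasting hormone Fgf21 was higher in C3H by 2.74 (SE 0.85, adjusted p = 0.019), with 2 of 4 129Ola arrays well above background. In the other comparisons these targets gave 3 higher and 0 lower in NZO against B6, 5 and 2 in DBA against B6, and 2 and 4 in NZO against DBA. Cyp4a14 was higher than in B6 in both NZO (2.97 (SE 0.78, adjusted p = 0.0121)) and DBA (3.18 (SE 0.78, adjusted p = 0.00813)), which share the B6 mice. The thiolase Acaa1a was lower in NZO than in DBA (-0.79 (SE 0.12, adjusted p = 8.26e-05)). PPAR delta (Ppard) was the most variable of the receptors not called. Its level ran from 0.87 to 2.95 in B6 and 0.80 to 3.11 in DBA, and its NZO minus B6 difference of 0.98 had a 95% interval of -0.19 to 2.14.

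The LXRs respond to oxysterols and raise cholesterol export and fatty acid synthesis. LXR beta (Nr1h2) was 4.69, 4.59, 4.58 and 4.48 in C3H mice and 5.11, 4.94, 4.89 and 4.90 in 129Ola mice, without overlap, and was 1.3-fold lower in C3H (-0.38 (SE 0.08, adjusted p = 0.00216)). Under normexp, quantile normalization, the percentile over detected probes and the slide block this call was lost, with differences of -0.19, -0.20 and -0.21 under the first 3. In NZO mice Nr1h2 was 4.68, 4.62, 4.41 and 4.50 and in B6 mice 4.27, 4.15, 4.32 and 4.35. All NZO mice lay above all B6 mice, by 0.28 (SE 0.08, adjusted p = 0.0239). Without B6 9 or 10 or NZO 3 or 7 the call did not hold, and with any 1 mouse left out the difference lay between 0.24 and 0.33, with adjusted p up to 0.0834. By scan day it was 0.28 on scan day 1 and 0.33 on scan day 2, with adjusted p = 0.0527 under the block, and the call was lost under quantile normalization and the percentile over detected probes. LXR alpha (Nr1h3), the LXR that dominates in hepatocytes, was 6.13, 5.71, 5.78 and 5.90 in NZO mice and 5.41, 5.49, 5.76 and 5.69 in DBA mice. These overlapped, and the difference of 0.29 (SE 0.09, adjusted p = 0.04) was among the smallest called. The call depended on single mice: it was lost without C3H 1, 2 or 5, B6 9, NZO 3 or 11 or DBA 5 or 9, over a range of 0.21 to 0.35 and adjusted p up to 0.144. A second Nr1h3 probe gave 0.41 (adjusted p = 0.0013 over the tested probes). Within scan days the difference was 0.44 on scan day 1 and 0.30 on scan day 2, with adjusted p = 0.0774 under the block. In C3H against 129Ola the Nr1h3 difference was -0.16, not past the threshold.

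Of 11 tested LXR targets, 1 was higher and 3 lower in NZO than in B6, 0 and 2 in DBA than in B6, 2 and 2 in NZO than in DBA, and 2 and 4 in C3H than in 129Ola. The sterol exporter Abcg5 was lower in NZO than in B6 (-0.81 (SE 0.23, adjusted p = 0.0219)), lower in DBA than in B6 (-1.31 (SE 0.23, adjusted p = 0.000534)) and lower in C3H than in 129Ola (-1.57 (SE 0.23, adjusted p = 6.99e-05)). Its partner Abcg8 was lower in C3H as well (-1.85 (SE 0.31, adjusted p = 0.000215)). Scd1, a desaturase of fatty acids that both LXR and insulin raise, went the other way in C3H, where it was higher by 2.81 (SE 0.53, adjusted p = 0.000608). In DBA, Scd1 was lower than in B6 by -2.53 (SE 0.53, adjusted p = 0.00228) and lower than in NZO, with an NZO minus DBA difference of 2.44 (SE 0.53, adjusted p = 0.00274).

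FXR (Nr1h4), the bile acid receptor, was called in no comparison. Its level ranged from 5.41 to 5.78 in B6, 5.70 to 6.11 in NZO, 5.41 to 6.00 in DBA, 5.99 to 6.31 in C3H and 5.53 to 6.26 in 129Ola. Its largest difference was 0.32 for NZO against B6, with a 95% interval of -0.02 to 0.65. Of 11 tested FXR targets 1 was higher and 1 lower in NZO than in B6, 0 and 1 in DBA than in B6, 2 and 1 in NZO than in DBA, and 0 and 4 in C3H than in 129Ola. The list does not separate genes that FXR raises from genes that it lowers, so these counts give no direction of FXR activity. Abcb11, the bile salt export pump, was lower in NZO than in both B6 (-1.12 (SE 0.13, adjusted p = 3.64e-06)) and DBA (-1.01 (SE 0.13, adjusted p = 1.13e-05)). In C3H the bile acid transporter subunit Slc51b was lower than in 129Ola by -1.40 (SE 0.30, adjusted p = 0.00155) and the phospholipid exporter Abcb4 by -0.53 (SE 0.14, adjusted p = 0.00617). With the slide as a random block 0 of the 11 were called by limma in C3H against 129Ola, against 4 without it. Without the block 5 had an unadjusted p below 0.05, and that count with the block is not given here.

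LRH-1, encoded by Nr5a2, had the largest difference between C3H and 129Ola among the receptors well above background on all arrays. LRH-1 drives bile acid synthesis genes in liver and binds DNA as a monomer. Its pair of tested probes lies on the minus strand of chromosome 1 (mm9), the brighter at chr1:138740903-138740962 and the other at chr1:138741712-138741771, and their first 30 of 60 bases are shown because the size of the difference depends on the probe.
Nr5a2 brighter probe: atgcaaagacagtgattctgcatatggcct
Nr5a2 other probe: gatggagaccaataccacagcagaataaaa
With the brighter probe Nr5a2 was 3.73, 3.74, 4.01 and 3.38 in C3H mice and 5.69, 5.47, 5.17 and 5.39 in 129Ola mice. The lowest 129Ola mouse lay far above the highest C3H mouse. Nr5a2 was 3.28-fold lower in C3H, a log2 difference of -1.72 (SE 0.15, adjusted p = 1.49e-07), kept under every alternative tried. With the other probe the levels were -1.75, -1.74, -1.54 and -1.95 in C3H and -0.79, -1.28, -1.22 and -1.25 in 129Ola, and the difference was -0.61 (adjusted p = 0.00134 over the tested probes), of the same sign and smaller. B6, NZO and DBA mice ranged from 3.51 to 3.84, 3.52 to 4.02 and 3.70 to 4.14 with the brighter probe. No difference among those 3 strains was called, and none exceeded 0.18 in size.

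SHP (Nr0b2), which represses LRH-1 and is induced by FXR, was 1.10, 0.86, -0.09 and 0.88 in C3H mice and 0.97, 1.95, 2.88 and 3.03 in 129Ola mice. The lowest 129Ola mouse, 129Ola 4, lay within the C3H range, and the difference of -1.52 (SE 0.44, adjusted p = 0.0119) is a 2.87-fold lower level in C3H. With 1 mouse left out it ran from -1.93 to -1.25, but the slide block ended the call. In NZO mice Nr0b2 was 0.76, 2.23, 2.36 and 1.02, a wide spread that overlapped B6 (1.86 to 2.90) and DBA (2.20 to 2.90), and neither difference was called (-0.83 and -0.95, adjusted p = 0.215 and 0.157). HNF4A (Hnf4a) was 7.19, 7.21, 7.13 and 6.96 in C3H mice and 7.41, 7.77, 7.56 and 7.72 in 129Ola mice. The strains did not overlap, and Hnf4a was 1.41-fold lower in C3H (-0.49 (SE 0.12, adjusted p = 0.00433)). That call was lost under normexp (-0.33), quantile normalization (-0.25), the percentile over detected probes (-0.33) and the slide block. Among B6, NZO and DBA, Hnf4a differed by at most 0.09 with no call.

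Of 15 tested HNF4A targets, 3 were higher and 3 lower in C3H than in 129Ola, with a median of 0.04, 5 were higher and 1 lower in NZO than in B6, 1 and 1 in DBA than in B6, and 1 and 0 in NZO than in DBA. Coagulation factor F12 was lower in C3H by -1.25 (SE 0.07, adjusted p = 2.9e-10) and also lower in DBA than in B6 (-0.37 (SE 0.07, adjusted p = 0.00075)). Mttp, which loads lipid onto apolipoprotein B, was higher than in B6 in NZO (0.66 (SE 0.14, adjusted p = 0.00221)) and in DBA (0.63 (SE 0.14, adjusted p = 0.00326)). Apoa4 was higher in NZO than in B6 (1.25 (SE 0.26, adjusted p = 0.00222)) and lower in C3H than in 129Ola (-0.93 (SE 0.26, adjusted p = 0.0101)).

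The COUP-TF factors bind many of the same sites as HNF4A and the retinoid receptors. COUP-TFI (Nr2f1) was -0.84, -0.97, -0.86 and -1.02 in DBA mice, -0.76, -0.80, -0.94 and -0.64 in NZO mice and -0.52, -0.68, -0.35 and -0.29 in B6 mice. All DBA mice lay below all B6 mice, while NZO and B6 mice overlapped. The differences from B6 were -0.46 (SE 0.10, adjusted p = 0.00261) in DBA and -0.33 (SE 0.10, adjusted p = 0.0269) in NZO, against the same B6 mice. With scan day as a block neither was called (adjusted p = 0.0737 and 0.0966). Within days the values were -0.49 on scan day 1 and -0.40 on scan day 2 for DBA and -0.30 on scan day 1 and -0.37 on scan day 2 for NZO. In fits with 1 mouse less the difference was -0.40 to -0.27, and the NZO call was lost without B6 11 or 15 or NZO 7 or 9, with adjusted p up to 0.09. With normexp the NZO difference was -0.17, not called, and the DBA difference -0.31, called. In C3H mice Nr2f1 was -1.07, -1.09, -1.09 and -0.85 and in 129Ola mice -0.72, -0.56, -0.82 and -0.71, without overlap and with a difference of -0.32 (SE 0.10, adjusted p = 0.0161). The call was lost without 129Ola 5, and with 1 mouse left out the difference ran from -0.38 to -0.27, with adjusted p up to 0.0546. That call was also lost under normexp (-0.17), the percentile over detected probes (-0.16) and the slide block. The other Nr2f1 probe gave -0.49 (adjusted p = 0.0472 over the tested probes) for NZO against B6 but 0.15 (adjusted p = 0.668 over the tested probes) for DBA against B6, so the DBA difference was seen with 1 probe only. For NZO against DBA the other probe gave -0.64 (adjusted p = 0.0108 over the tested probes), whereas the brighter gave 0.14, not called and of opposite sign. For C3H against 129Ola the other probe gave -0.36 (adjusted p = 0.096 over the tested probes), not past the threshold. COUP-TFII (Nr2f2) was not called. Its NZO minus DBA difference was -0.59 (95% interval -1.06 to -0.12, adjusted p = 0.0828). Nr2f6 was not called either, with levels from 6.36 to 6.50 in NZO and 6.15 to 6.31 in DBA.

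The testicular receptor TR2 (Nr2c1) was 1.86, 1.46, 2.12 and 1.76 in NZO mice and 1.10, 1.24, 1.71 and 1.36 in DBA mice. These overlapped, and the difference was 0.45 (SE 0.15, adjusted p = 0.0415). Leaving out C3H 2, B6 10, NZO 3, 9 or 11 or DBA 5, 9 or 15 ended the call, and over all such fits the difference ran from 0.34 to 0.57, with adjusted p up to 0.131. The other Nr2c1 probe gave 0.73 (adjusted p = 0.000992 over the tested probes). For DBA against B6 that other probe gave -0.49 (adjusted p = 0.0227 over the tested probes), whereas the brighter gave -0.02, not called. With the brighter probe and scan day as a block, the adjusted p for NZO against DBA was 0.069, with values of 0.67 on scan day 1 and 0.36 on scan day 2. Its relative TR4 (Nr2c2) was called nowhere, with differences from -0.21 in C3H against 129Ola to 0.16 in NZO against B6.

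Estrogen-related receptors have no known natural ligand and, with PGC-1 coactivators, raise mitochondrial gene expression. ERR gamma (Esrrg), which in liver has been tied to gluconeogenesis, had the largest difference among B6, NZO and DBA with this scaling. It was -2.16, -1.19, -1.55 and -2.29 in NZO mice and -3.53, -3.14, -4.77 and -5.18 in B6 mice. It was -3.28, -2.72, -3.52 and -3.89 in DBA mice. All NZO mice lay above all B6 and DBA mice. Esrrg was 5.12-fold higher in NZO than in B6, a log2 difference of 2.36 (SE 0.44, adjusted p = 0.000756), with 4 NZO arrays and 2 B6 arrays well above background. NZO was the only strain with all 4 arrays well above background, so Esrrg was tested only because of its NZO signal. Its calls as higher in NZO are therefore not independent of that filter. The size depended on how background was handled: with normexp the difference was 0.65, smaller in size than that of Nr1i3 (-0.99), and still called. Within scan days it was 2.16 on scan day 1 and 2.96 on scan day 2, and the call held with scan day as a block (adjusted p = 0.00705). Against DBA, where 3 arrays were well above background, the difference was 1.55 (SE 0.44, adjusted p = 0.0179), and 0.55 with normexp. Without NZO 7 or DBA 15 the call did not hold, and with any 1 mouse left out the difference lay between 1.35 and 1.77, with adjusted p up to 0.061. On single scan days the value was 0.72 on scan day 1 and 2.09 on scan day 2, with adjusted p = 0.218 under the block. In C3H mice the signal was -4.11, -3.92, -4.98 and -3.81 and was not well above background on any array, and in 129Ola mice it was -2.17, -2.37, -2.49 and -3.57. The strains did not overlap, and Esrrg was at least 1.87-fold lower in C3H than in 129Ola; the measured means were -4.20 ± 0.53 and -2.65 ± 0.63 (SD, n = 4), with a fitted difference of -1.55 (SE 0.44, adjusted p = 0.0104), or -0.35 with normexp. With the slide as a random block that call was lost. A second Esrrg probe was well above background on 4 NZO, 1 B6, 1 DBA, 1 129Ola and 0 C3H arrays. It was higher in NZO than in B6 and in DBA (adjusted p = 0.000537 and 0.00824 over the tested probes), and no size is given for these differences since most B6 and DBA arrays were near background. This probe too was tested only because of its NZO signal, so its p-values are no separate support.

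ERR beta (Esrrb) was -1.0, -1.18, -0.84 and -1.40 in NZO mice and -1.61, -1.47, -1.90 and -2.03 in DBA mice. All NZO mice lay above all DBA mice, by 0.64 (SE 0.18, adjusted p = 0.0179), or 0.35 with normexp. The call depended on single mice: it was lost without NZO 3 or 9 or DBA 8 or 15, over a range of 0.55 to 0.74 and adjusted p up to 0.0649. Within scan days the difference was 0.39 on scan day 1 and 0.42 on scan day 2, with adjusted p = 0.224 under the block. ERR alpha (Esrra), the family member most abundant in oxidative tissues, was not called. Its C3H minus 129Ola difference of -0.36 (95% interval -0.65 to -0.06, adjusted p = 0.0519) narrowly missed the threshold. Estrogen receptor alpha (Esr1) was 0.25, 0.30, 0.28 and 0.15 in C3H mice and -0.95, -0.49, -0.57 and 0.43 in 129Ola mice. The C3H mice lay close together and 129Ola 9 lay above all of them, with a difference of 0.64 (SE 0.20, adjusted p = 0.021), or 0.32 with normexp. In fits with 1 mouse less the difference was 0.45 to 0.91, and the call was lost without 129Ola 4, 5 or 7, with adjusted p up to 0.0794. A second probe gave 0.74 (adjusted p = 0.037 over the tested probes). NZO mice were above B6 mice for Esr1 (-0.66 to -0.35 against -1.24 to -0.78), but the difference of 0.59 was not called (adjusted p = 0.052). It was called under normexp, quantile normalization, scan day as a block and the fit on 1 software version. With the percentile over detected probes it was not.

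PGC-1 alpha (Ppargc1a), the coactivator that fasting and cold induce, was 0.11, -0.15, -0.53 and 0.03 in NZO mice and 0.91, 0.73, 0.67 and 0.76 in DBA mice. The strains did not overlap, and Ppargc1a was 1.86-fold lower in NZO, a log2 difference of -0.90 (SE 0.21, adjusted p = 0.00443). By scan day it was -0.86 on scan day 1 and -1.05 on scan day 2, and the call held with scan day as a block (adjusted p = 0.0112). A dimmer probe gave -0.57 (adjusted p = 0.172 over the tested probes). B6 mice were at 0.14, 0.28, -0.08 and 0.49, and neither difference from B6 was called (-0.34 for NZO and 0.56 for DBA). PGC-1 beta (Ppargc1b), tied to lipid synthesis in liver, was -4.08, -3.93, -3.47 and -3.62 in NZO mice, with 1 array well above background, and -2.91, -2.12, -2.44 and -2.59 in DBA mice, with 4. It was lower in all NZO mice than in all DBA mice, by -1.26 (SE 0.37, adjusted p = 0.0245). The call was lost without NZO 3 or 7 or DBA 9 or 8, and with 1 mouse left out the difference ran from -1.39 to -1.13, with adjusted p up to 0.0752. With normexp the difference shrank to -0.10 (adjusted p = 0.452) and was not called, and it missed the threshold with quantile normalization as well, at -1.25. The call was kept with scan day as a block (adjusted p = 0.00862). In the fit as reported, Ppargc1a and Ppargc1b were both called lower in NZO than in DBA, and Esrrb and Esrrg higher. Of 11 tested genes that PGC-1 and the ERRs are known to raise, 1 was higher and 1 lower in NZO than in DBA. Cytochrome c (Cycs) was higher by 0.35 (SE 0.11, adjusted p = 0.0433) and the medium-chain acyl-CoA dehydrogenase Acadm lower by -0.51 (SE 0.15, adjusted p = 0.0269). In NZO against B6 1 of the 11, Cycs, was higher and 0 lower. In DBA against B6 limma called 0 of the 11, with 1 at an unadjusted p below 0.05, and normexp called 1. In C3H against 129Ola 0 were higher and 2 lower, Acadm by -0.85 (SE 0.15, adjusted p = 0.000399) and the mitochondrial transcription factor Tfam by -0.33 (SE 0.10, adjusted p = 0.0119). With normexp, quantile normalization or the percentile over detected probes, 2 were higher and 1 lower.

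The receptors of glucocorticoids, mineralocorticoids and thyroid hormone were called in no comparison. The glucocorticoid receptor (Nr3c1) ranged from 4.49 to 4.76 in B6, 4.39 to 4.90 in NZO and 4.34 to 4.91 in DBA, with differences of 0.01 to 0.04 and 95% intervals within -0.27 to 0.33. In C3H against 129Ola its difference was -0.29 (adjusted p = 0.105). Of 15 tested glucocorticoid targets, 1 was higher and 3 lower in NZO than in B6, 0 and 1 in DBA than in B6 and in NZO than in DBA, and 0 and 3 in C3H than in 129Ola. Igfbp1, which insulin also represses, was lower in NZO than in B6 by -2.84 (SE 0.49, adjusted p = 0.000358), and the cochaperone Fkbp5 was higher by 0.91 (SE 0.22, adjusted p = 0.00666). The clock gene Per1 was lower in C3H than in 129Ola by -2.62 (SE 0.45, adjusted p = 0.000299). The times of day of sampling were not given in the sources used here. The mineralocorticoid receptor (Nr3c2) was not called, and its 129Ola mice alone ran from -2.55 to -0.73. All NZO mice lay above all B6 mice for Nr3c2, with a difference of 0.58 (adjusted p = 0.187). That difference was called under normexp, with scan day as a block and in the fit on 1 software version. It was not called under quantile normalization or the percentile over detected probes. Thyroid hormone receptors alpha (Thra) and beta (Thrb) were not called, with differences from -0.25 in NZO against DBA to 0.18 in DBA against B6 for Thrb. Of 8 tested thyroid hormone targets, 2 were higher and 1 lower in NZO than in B6, 1 and 2 in DBA than in B6, 1 and 0 in NZO than in DBA, and 3 and 2 in C3H than in 129Ola. Malic enzyme (Me1) was higher in NZO than in B6 (1.03 (SE 0.23, adjusted p = 0.00454)) and in C3H than in 129Ola (1.93 (SE 0.23, adjusted p = 8.57e-06)).

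Nur77 (Nr4a1), an immediate-early receptor gene that stress and feeding change within minutes to hours, varied within strains. It was -0.80, 0.10, -0.78 and -0.83 in NZO mice and 0.41, 1.85, -0.03 and 0.07 in B6 mice. B6 10 stood above the other B6 mice and NZO 7 above the other NZO mice, and the strains overlapped. The difference was -1.15 (SE 0.37, adjusted p = 0.0394). Leaving out B6 9 or 10 or NZO 3, 9 or 11 ended the call, and over all such fits the difference ran from -1.38 to -0.73, with adjusted p up to 0.135. Within scan days it was -1.76 on scan day 1 and -0.10 on scan day 2, with adjusted p = 0.0997 under the block. Rora, a receptor tied to the circadian clock, was not called. Its differences lay between -0.21 and 0.17. Of 6 tested nuclear receptors outside the 41, the clock repressors Nr1d1 and Nr1d2 were lower in C3H than in 129Ola by -1.77 (SE 0.66, adjusted p = 0.0435) and -1.07 (SE 0.41, adjusted p = 0.049); the Nr1d1 call was lost under quantile normalization, the percentile over detected probes and the slide block.

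The corepressor NCoR1 (Ncor1), which unliganded thyroid, retinoid and PPAR receptors recruit, was 2.40, 2.28, 2.39 and 2.15 in C3H mice and 2.66, 2.55, 2.68 and 2.59 in 129Ola mice. The strains did not overlap, but the difference was small, -0.32 (SE 0.12, adjusted p = 0.0409). Without C3H 2 or 5 or 129Ola 4, 5, 7 or 9 the call did not hold, and with any 1 mouse left out the difference lay between -0.35 and -0.26, with adjusted p up to 0.118. It was also lost under normexp (-0.20), quantile normalization (-0.18) and the percentile over detected probes (-0.15), and none of the 3 other Ncor1 probes was called. Of 27 tested coregulators outside the 41, 2 were higher and 1 lower in NZO than in B6, 4 and 2 in DBA than in B6, 3 and 3 in NZO than in DBA, and 2 and 7 in C3H than in 129Ola. The acetyltransferase CBP (Crebbp) was higher than in B6 in both NZO (1.90 (SE 0.14, adjusted p = 2.63e-08)) and DBA (1.22 (SE 0.14, adjusted p = 5.59e-06)). The Mediator subunit that contacts nuclear receptors, Med1, was lower than in B6 in both NZO (-1.48 (SE 0.15, adjusted p = 7.8e-07)) and DBA (-1.27 (SE 0.15, adjusted p = 4.6e-06)). These calls share the B6 mice, and each of these genes was read from its brightest tested probe alone. The part of a base difference under a probe was not tested. Gps2, a subunit of the NCoR complex, was lower in C3H than in 129Ola by -0.69 (SE 0.10, adjusted p = 5.76e-05).

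**Figure D5:**
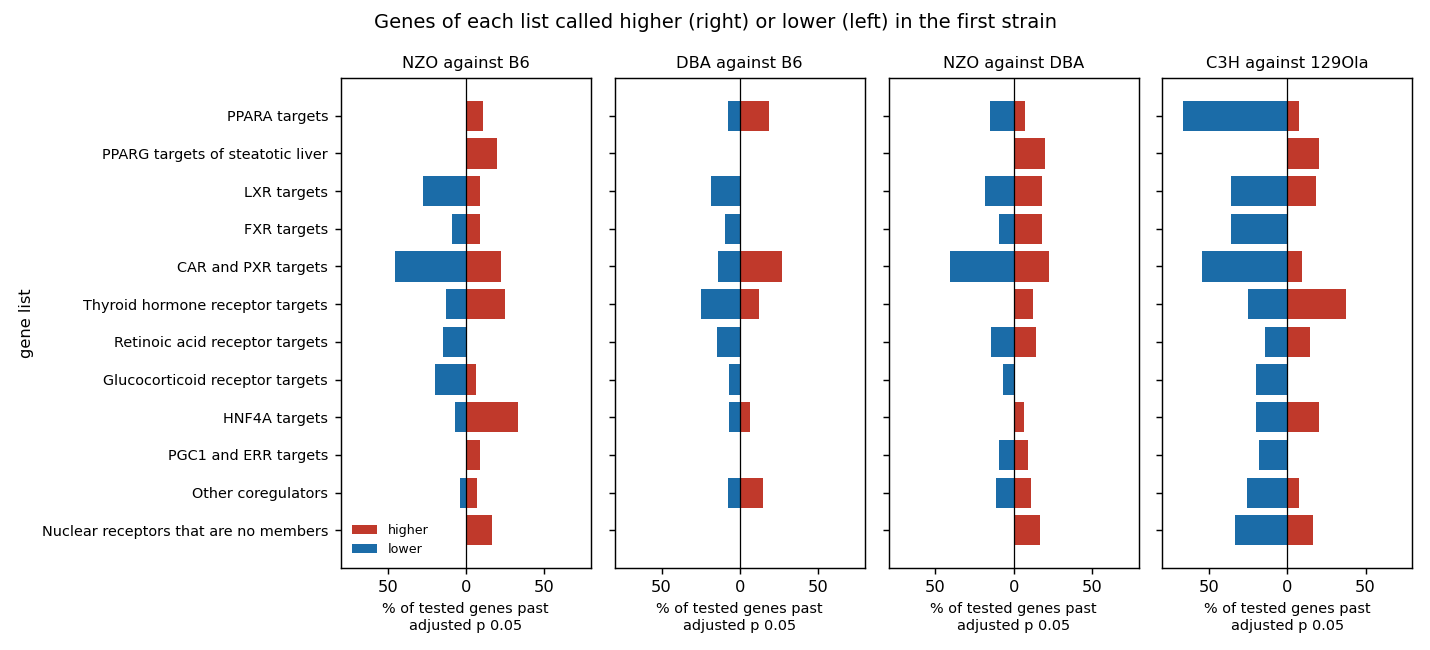
Percent of the tested genes of 12 lists that limma called higher (to the right) or lower (to the left), in 1 panel per comparison. PPAR alpha targets (18 of 27) and CAR and PXR targets (12 of 22) have the longest bars towards lower in C3H against 129Ola among the lists with more than 10 tested genes, and CAR and PXR targets have long bars in all 4 panels.

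The genes not called leave room for differences that 4 mice per strain cannot settle. Of the 37 tested, 16 were called in no pair: Ppara, Ppard, Nr1h4, Nr1i2, Rarb, Thra, Thrb, Nr2f2, Nr2f6, Nr2c2, Esrra, Nr3c1, Nr3c2, Nr4a2, Nr6a1 and Rora. Their differences ran from -0.26 to 0.98 in NZO against B6, -0.11 to 0.43 in DBA against B6, -0.67 to 1.09 in NZO against DBA and -0.40 to 0.60 in C3H against 129Ola. The highest value in all comparisons but DBA against B6 is that of Ppard, which has the widest intervals, up to 2.25 in NZO against DBA. Under other scalings some of these 16 were called in a pair, among them Ppara, Nr2f2, Nr3c2, Nr1h4 and Rarb. Dimmer probes of Ppara and Rarb also passed for DBA against B6 in the fit over probes.

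Nuclear receptors read short DNA words, of which AGGTCA is the best known core. Since 12 of the receptors and coregulators were lower in C3H than in 129Ola, the 250 bases before each annotated start were searched for AGGTCA on both strands (TGACCT on the printed strand), in the RefSeq windows of the GRCm38.p6 build. Of these 12 genes all 12 have a window and 3 hold the core: Nr5a2, Rxra and Pparg. Among all 41 genes, 37 matched a window, and 8 of the 37 hold the core in 9 of their 59 windows, or 15.3%, close to the 14% (4607 of 32851) of all windows. The longer word TCAAGGTCA, the extended site of receptors that bind as monomers, holds AGGTCA within it and was found on either strand in 0.387% of all windows and in none of the 59. A match is only a stretch of letters here, and no binding was measured. The windows of Nr5a2, with the largest difference, and of Rxra, with 2 matches, are shown with the core in capitals, at chr1:136960449-136960698 on the minus strand and chr2:27709042-27709291 on the plus strand, each written 5′ to 3′ in the gene's direction.
Nr5a2 window: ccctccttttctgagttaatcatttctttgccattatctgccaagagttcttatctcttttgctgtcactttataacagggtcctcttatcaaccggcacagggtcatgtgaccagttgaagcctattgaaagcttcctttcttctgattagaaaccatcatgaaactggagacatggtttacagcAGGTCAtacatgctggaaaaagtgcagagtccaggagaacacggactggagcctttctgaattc
Rxra window: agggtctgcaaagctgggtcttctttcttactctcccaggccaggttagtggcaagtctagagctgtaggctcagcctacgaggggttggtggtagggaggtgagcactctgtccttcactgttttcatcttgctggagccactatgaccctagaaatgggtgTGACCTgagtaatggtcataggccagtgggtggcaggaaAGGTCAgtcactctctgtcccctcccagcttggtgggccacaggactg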

How the data were processed

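The deposited scanner files hold 62976 spots per array with raw and processed intensities, which the authors' Agilent Feature Extraction software background-subtracted and spatially detrended, per the file headers. The headers give versions 11.0.1.1 and 11.5.1.1, whereas the submitters' processing notes name Agilent Feature Extraction 9.1. A deposited value table of 37892 probes (median 19.9, scale not stated) served as an alternative. Control spots (3671 per array) and 96 to 186 outlier spots per array were left out, spots of a probe were averaged, and the log2 of the processed intensity was centred on each array's 75th percentile. Per the file headers, each spot also carries other flags of 0 or 1 for well above background, saturated and outlier spots. A gene was tested where a probe was well above background in all mice of 1 strain, and its brightest such probe stood for it. In R 4.3.3, limma 3.58.1 fitted a mean per strain over 20 arrays, with Benjamini-Hochberg adjustment over 20624 genes. Tested on simulated data of NZO against B6 over 20624 genes, the fit recovered 67 of 100 log2 differences of 1 and 91 of 100 of 2.

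Values per mouse are given for genes past the threshold in any of the 4 comparisons. From each list the genes with the 3 largest called differences per comparison could be named. Results of a few such genes are not reported here. The 41 genes and the lists were chosen with earlier results of these data known. Probe positions are mm9, as in the files; an mm9 genome and annotation were not used here. Promoter windows come from RefSeq. Python 3.11.15 made tables and figures.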

Additional observations from a re-analysis of the deposited data

Results flagged for a closer look

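In 5 of 105 groups of 4 mice, 1 mouse stood apart from the other 3 by a share of the group's whole range above Dixon's 95% critical value; chance alone flags about 1 in 20 groups, or about 5 of these 105. All 5 are given as log2 levels. For Nr4a1, NZO 7 was at 0.10 and the other NZO mice at -0.83 to -0.78. The Esrrb level of C3H 1 was -0.49, with the other C3H mice at -0.73 to -0.71. In C3H 5, Nr2f1 was at -0.85 against -1.09 to -1.07, and Rxra at 0.87 against 1.00 to 1.02. For Rxrb, NZO 11 was at 4.73 and the other NZO mice at 4.81 to 4.83.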

How the results depend on the processing

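Of 33 called differences, 16 were called in every fit that left out 1 mouse and 17 were lost in some. Over all alternatives, 831 of 1026 values stayed past the threshold with the same sign, 195 fell short of it and 0 changed sign. The alternatives used the same arrays or a part of them, so a kept sign was likely beforehand and is no independent repeat. Shares of all genes called were given above under other scalings, but are not given for the further alternatives below. Counts under these are thus not results about the 37 genes in particular. The number of the 37 genes called moved by over 1.5 times as follows. NZO against B6 (8 called) gave 4 with the deposited value table, which holds 24 of the 37, 4 with no filter on dim probes and 4 to 9 with 1 mouse left out. DBA against B6 (2 called) gave 5 with normexp, 4 with the percentile over detected probes, 1 to 3 with 1 mouse left out and 0 by limma with scan day as a block, where 7 had an unadjusted p below 0.05. NZO against DBA (9 called) gave 4 with the value table, 5 with no filter, 4 with scan day as a block, 5 when fitted on 1 software version and 3 to 10 with 1 mouse left out. C3H against 129Ola (14 called) gave 9 with normexp, 5 with the value table, 4 with the slide as a random block and 12 to 15 with 1 mouse left out. The F test (19 called) gave 9 with the value table and 16 to 19 with 1 mouse left out. Where no construction above accounts for a change, the cause was not tested. Animal numbers did not pair the mice (correlations of deviations -0.34 to 0.38). With the animal number as a replicate block, 1, 1, 1 and 1 of the 37 were called in the 4 comparisons and 3 by the F test. A scan-day block for C3H against 129Ola and for the F test, and the F test within 1 software version, could not be fitted. Probes near background limit what can be said of Esrrg, Nr4a2, Nr6a1, Nr3c2 and Ppargc1b.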
